A study of Mus musculus with 4 samples.

Results

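The SoxC, SoxE and SoxF genes encode transcription factors that bind DNA through an HMG box, and they were described here by the Ring1B occupancy of their promoters in mouse embryonic fibroblasts. Members were the array probes whose gene name was Sox4, Sox11 or Sox12 (SoxC), Sox8, Sox9 or Sox10 (SoxE), or Sox7, Sox17 or Sox18 (SoxF). Of these 9 genes, 8 had probes under exactly that name, and Sox10 was not analysed here. The 8 genes held 262 of the 462748 probes with a gene name, and they were 8 of 17649 gene names with a measurable promoter window. The choice rested on gene names and not on any measured value.

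Ring1B was measured by chromatin immunoprecipitation and hybridisation to oligonucleotide promoter arrays. The cells were primary C57BL/6 embryonic fibroblasts of embryonic day 12.5 at passage 2, either homozygous for Phc2 L307R (Phc2 L307R/L307R) or wild type. Each array compared the Ring1B immunoprecipitate in Cy5 with input DNA in Cy3, both amplified with T7 RNA polymerase, without a dye swap. There were 4 arrays, 1 for each genotype on each of 2 array designs. Sox17, Sox12 and Sox18 lay on design 1 and the other 5 genes on design 2, so each gene was measured once in each genotype. The design therefore gives no error between cultures, and no p-values are given. Per the file headers, both Phc2 L307R arrays were scanned on 1 day and both wild-type arrays on another, so scan day and genotype cannot be told apart.

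Ring1B is the ubiquitin ligase subunit of Polycomb repressive complex 1 (PRC1), which marks histone H2A at CpG-rich promoters of developmental regulators and helps keep them silent. Phc2, another PRC1 subunit, has a SAM domain that joins end to end into polymers, and the study's title places that polymerisation beside the nuclear clustering of PRC1 and silencing. Many Sox genes are developmental regulators of the kind that PRC1 occupies in cells of another lineage. SoxC factors act in neuronal and mesenchymal progenitors, SoxE factors in cartilage, testis and neural crest, and SoxF factors in endothelium and endoderm. Sox4, Sox9 and Sox11 are known to be active in mesenchyme, the tissue from which fibroblasts are grown.

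The 300-base promoters of Sox11, Sox12, Sox4 and Sox8 are shown because CG-rich sequence is where PRC1 is known to gather, and these 4 of the 8 genes matched the RefSeq promoter table (GRCm38.p6, 250 bases before to 50 after the gene start). They lie on the minus strand at chr12:27342669-27342968, chr2:152397997-152398296, chr13:28953650-28953949 and chr17:25570637-25570936, in the order in which they are printed. Capitals mark CG dinucleotides.
Sox11: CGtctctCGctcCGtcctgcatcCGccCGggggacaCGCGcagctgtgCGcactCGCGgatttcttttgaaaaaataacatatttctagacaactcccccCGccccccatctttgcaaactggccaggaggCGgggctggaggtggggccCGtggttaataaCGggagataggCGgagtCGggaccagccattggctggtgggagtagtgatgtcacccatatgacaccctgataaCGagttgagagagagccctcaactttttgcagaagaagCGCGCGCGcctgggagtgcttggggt
Sox12: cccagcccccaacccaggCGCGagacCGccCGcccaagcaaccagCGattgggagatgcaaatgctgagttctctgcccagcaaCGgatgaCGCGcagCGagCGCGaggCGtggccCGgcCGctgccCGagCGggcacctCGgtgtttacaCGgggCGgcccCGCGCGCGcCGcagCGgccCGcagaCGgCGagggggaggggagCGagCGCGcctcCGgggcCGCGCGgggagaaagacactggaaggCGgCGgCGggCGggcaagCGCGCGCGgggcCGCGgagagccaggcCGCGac
Sox4: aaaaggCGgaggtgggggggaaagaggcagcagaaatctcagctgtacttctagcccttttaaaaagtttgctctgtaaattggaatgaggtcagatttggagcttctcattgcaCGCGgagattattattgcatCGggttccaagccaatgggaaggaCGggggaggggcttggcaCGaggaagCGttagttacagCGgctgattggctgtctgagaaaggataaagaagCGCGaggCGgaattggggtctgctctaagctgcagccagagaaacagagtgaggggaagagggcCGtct
Sox8: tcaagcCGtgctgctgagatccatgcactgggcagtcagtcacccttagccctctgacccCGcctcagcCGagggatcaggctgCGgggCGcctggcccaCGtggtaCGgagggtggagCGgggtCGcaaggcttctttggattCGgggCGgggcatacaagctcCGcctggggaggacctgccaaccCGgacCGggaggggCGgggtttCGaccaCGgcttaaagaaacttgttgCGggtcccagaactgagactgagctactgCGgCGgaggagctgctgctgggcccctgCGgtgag

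Sox12 held 47 CG dinucleotides in its 300 bases and a G+C content of 76.7%, and 1.22% of the 32851 promoters of the table held more. Sox11 and Sox8 held 21 each, with a G+C content of 58.7% and 66.3%, and Sox4 held 12 with 52.0%. The median over the table was 7, so all 4 lay above it. The motifs AACAAT and ACAAAG, of the kind Sox factors bind, were searched on both strands. Neither was found in these 4 windows, whereas 10.7% of all promoters of the table held AACAAT and 18.7% held ACAAAG. The sources used here name no genome build for the probe positions on the arrays, so these stretches could not be placed relative to the probes.

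Among all promoters matched to the table by name, those with more CG dinucleotides had higher ratios of Ring1B immunoprecipitate over input. The ratios were not adjusted for base composition or for the number of probes, and the part of these was not tested. Of the 1382 gene names with 30 or more CG dinucleotides, 61.3% reached a log2 level of 1 in Phc2 L307R and 67.9% in wild type. Of the 1974 names with 0 to 4, 10.6% did so in Phc2 L307R and 7.45% in wild type. The 4 printed Sox promoters are too few to compare on this scale, and their levels come from different probes and array designs.

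For every gene name, the level was the mean log2 ratio of immunoprecipitate over input in the window of 3 neighbouring probes where the mean over both genotypes was highest, with the median of each array set to 0. The SD given with a level or a difference is over those 3 probes. It covers the spread between probes only. A promoter was called bound at a level of at least 1, which is 2-fold over the array median, and lower or higher in Phc2 L307R when it was bound in either genotype, differed by at least 1 and had all 3 probes on the same side.

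Ring1B was found at 7 of the 8 Sox promoters in Phc2 L307R fibroblasts and at 6 of 8 in wild type. With these windows, Sox17, Sox9 and Sox11 had the 3 highest levels in both genotypes, an order that depended on the processing, as given below. Sox4, Sox12 and Sox7 were lower but bound in both, and Sox8 was unbound in both. The count differed through Sox18 alone, which lay near the cut-off. Over all promoters, 39.3% were bound in Phc2 L307R and 45.4% in wild type. A level of at least 3 was reached by 2 of the 8 genes in Phc2 L307R (Sox17 and Sox9), against 1.44% of all promoters, and by 3 of 8 in wild type (Sox9, Sox17 and Sox11), against 1.58%. In either genotype 7 of 8 were bound, against 51.0% of all promoters. The highest window was taken from 27 to 48 probes at the genes bound in both genotypes, but from 14 at Sox8 and 11 at Sox18. Neither levels nor shares were adjusted for the number of probes. By the 2-fold rule 0 of the 7 bound Sox promoters were lower and 0 were higher in Phc2 L307R. The same rule called 3.01% of the 8997 bound promoters lower and 1.64% higher, so 0 of 7 is near that background. The median difference of the 8 genes was -0.02, with a range of -0.43 to 0.63, beside -0.05 over all promoters and -0.14 over the bound ones. Over the 341 promoters at 3 or above in either genotype, a level that Sox17, Sox9 and Sox11 reached, the median difference was -0.30. Of those 341, 59 were lower and 13 higher.

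**Figure D1:**
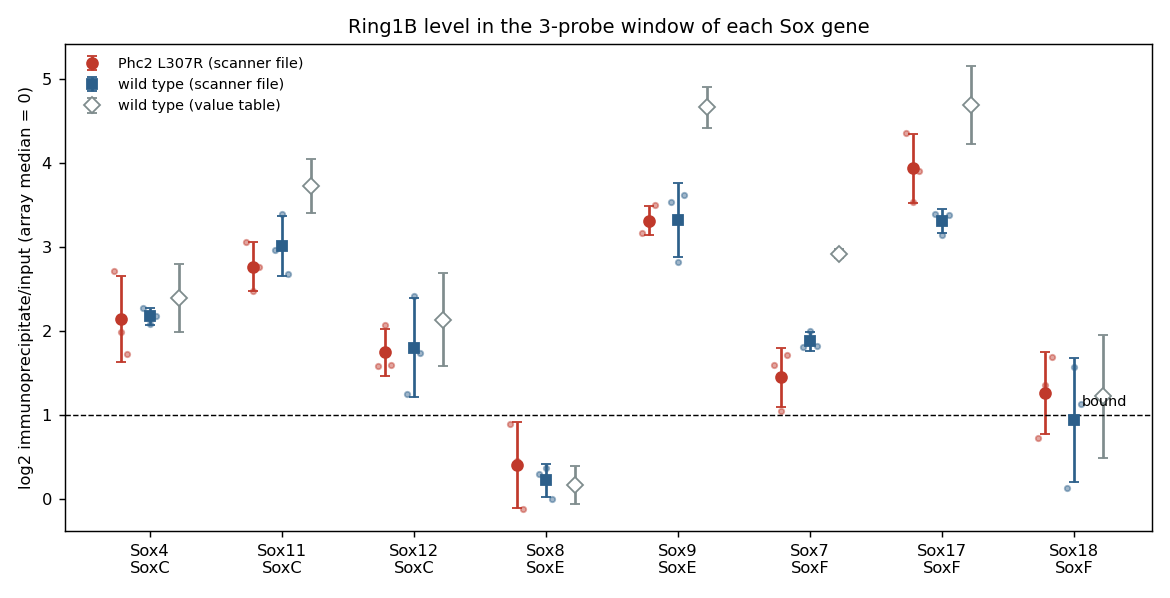
Ring1B level of the 8 Sox genes on the y axis (log2 immunoprecipitate over input, array median 0), with Phc2 L307R (circles) left of wild type from the scanner files (squares) and wild type from the deposited value tables (open diamonds). Small points are the 3 probes of the window and bars their SD; the dashed line is the bound cut-off of 1. Sox17 is at 3.93 in Phc2 L307R and 3.30 in wild type, Sox9 is level at 3.31 and 3.32, and the diamonds of Sox17, Sox9 and Sox7 lie at least 1.04 above their squares.

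Among the SoxC genes, all 3 were bound in both genotypes and each difference was smaller than its SD over probes. Sox4, a factor of neuronal and mesenchymal progenitors and of lymphoid precursors, had a window at chromosome 13, 28960442 to 28960993, in the coordinates of the array. Its 3 probes read 2.71, 1.99 and 1.72 in Phc2 L307R and 2.28, 2.08 and 2.17 in wild type. The ranges overlapped, and the mutant probes were spread more widely. The level was 2.14 ± 0.51 in Phc2 L307R and 2.17 ± 0.10 in wild type, a difference of -0.04 ± 0.44 (SD, 3 probes).

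Sox11, which acts with Sox4 in neurogenesis and in the survival of mesenchymal progenitors, had the highest SoxC level (chromosome 12, 27926537 to 27927043). The probes of its window stood at 3.06, 2.48 and 2.76 in Phc2 L307R, against 2.96, 3.39 and 2.67 in wild type. One probe was clearly lower in the mutant and the other 2 were slightly higher, so the ranges overlapped. The level was 2.76 ± 0.29 in Phc2 L307R and 3.01 ± 0.36 in wild type, with a difference of -0.24 ± 0.58.

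Sox12, the third SoxC gene, is expressed in many tissues and its loss in mice is known to be well tolerated. In its window (chromosome 2, 152089659 to 152090070) the probes read 1.58, 2.07 and 1.59 in Phc2 L307R and 1.24, 2.42 and 1.74 in wild type. The wild-type probes enclosed the mutant ones. Its levels of 1.75 ± 0.28 in Phc2 L307R and 1.80 ± 0.59 in wild type differed by -0.05 ± 0.35. As a subgroup, SoxC had a median level of 2.14 in Phc2 L307R and 2.17 in wild type, and a median difference of -0.05.

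The SoxE genes differed widely from each other in level. Sox9, the regulator that commits mesenchymal cells to cartilage and that drives testis formation, was bound at one of the higher levels of the series (chromosome 11, 112596766 to 112597072). The 3 probes gave 3.16, 3.26 and 3.50 in Phc2 L307R and 3.53, 2.82 and 3.61 in wild type. The mutant probes lay inside the wild-type range. The level was 3.31 ± 0.17 in Phc2 L307R and 3.32 ± 0.44 in wild type, a difference of -0.01 ± 0.42, and 1.01% and 1.26% of all promoters stood higher in those genotypes.

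Sox8, which overlaps with Sox9 in the testis and with other SoxE genes in glia, read 0.90, 0.45 and -0.12 in Phc2 L307R and 0.30, 0.37 and 0.0002 in wild type (chromosome 17, 25297662 to 25298078). All 6 readings were below the bound cut-off and the ranges overlapped. The levels were 0.41 ± 0.51 in Phc2 L307R and 0.22 ± 0.20 in wild type. Only 14 probes over 2307 bp carried the name Sox8 alone. A further 44 probes carried the shared name Sox8-Tmem112. Their highest window (chromosome 17, 25306426 to 25306743) lay at the end of that stretch farthest from the Sox8 probes. It was also below the cut-off, at 0.19 ± 0.27 in Phc2 L307R and 0.65 ± 0.29 in wild type.

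In the SoxF subgroup the differences of the 3 genes had different signs, and Sox17 showed the largest difference of the 8 genes. Sox17, which specifies definitive endoderm and acts in arterial endothelium and fetal blood stem cells, read 4.35, 3.53 and 3.91 in Phc2 L307R, against 3.39, 3.14 and 3.38 in wild type (chromosome 1, 4485437 to 4485727). Every mutant probe lay above every wild-type probe in this window. The level was 3.93 ± 0.41 in Phc2 L307R and 3.30 ± 0.14 in wild type, a difference of 0.63 ± 0.30 or 1.55-fold. That is below the 2-fold rule and inside the central 90% of the differences of bound promoters, which ran between -0.88 and 0.73. With a 1.5-fold rule Sox17 was the 1 of the 7 bound promoters of these subgroups called higher, and 0 were called lower. That rule called 6.38% of all bound promoters higher and 13.5% lower. Input signal was well above background at only 1 of the 3 probes of the window in each genotype. In the deposited value tables the sign was turned, as given below.

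Sox7, which acts with Sox17 and Sox18 in vessels and in primitive endoderm, lay on the other side. Its probes (chromosome 14, 62897072 to 62897428) read 1.59, 1.04 and 1.71 in Phc2 L307R and 1.81, 2.00 and 1.82 in wild type. Each mutant probe was below every wild-type probe. The level of 1.45 ± 0.35 in Phc2 L307R and 1.87 ± 0.11 in wild type gave a difference of -0.43 ± 0.46, which is smaller than its probe spread.

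Sox18, a regulator of lymphatic and vascular endothelium, had 11 probes over 2253 bp under its own name. Its window (chromosome 2, 181600132 to 181600632) read 0.73, 1.36 and 1.69 in Phc2 L307R and 0.13, 1.57 and 1.13 in wild type. The ranges overlapped, and the level of 1.26 ± 0.49 in Phc2 L307R passed the bound cut-off while that of 0.94 ± 0.74 in wild type lay just under it. Sox18 was bound in both genotypes from the value tables (1.26 in Phc2 L307R and 1.22 in wild type) and after loess (1.24 in Phc2 L307R and 1.05 in wild type). It was bound in neither after normexp background correction (0.37 in Phc2 L307R and 0.49 in wild type) or with only probes well above background (0.89 in Phc2 L307R and 0.96 in wild type). Input was well above background at 0 of the 3 probes in Phc2 L307R and at 2 of 3 in wild type. Of the 46 probes with the shared name Sox18-Tcea2, the highest window lay at chromosome 2, 181609074 to 181609624. That is the end of the shared stretch farthest from the Sox18 probes. It gave 0.83 ± 0.35 in Phc2 L307R and 1.07 ± 0.32 in wild type, so there the wild type alone was past the cut-off. The means over all 46 probes were -0.09 in Phc2 L307R and 0.14 in wild type. These shared windows were not counted among the members.

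**Figure D2:**
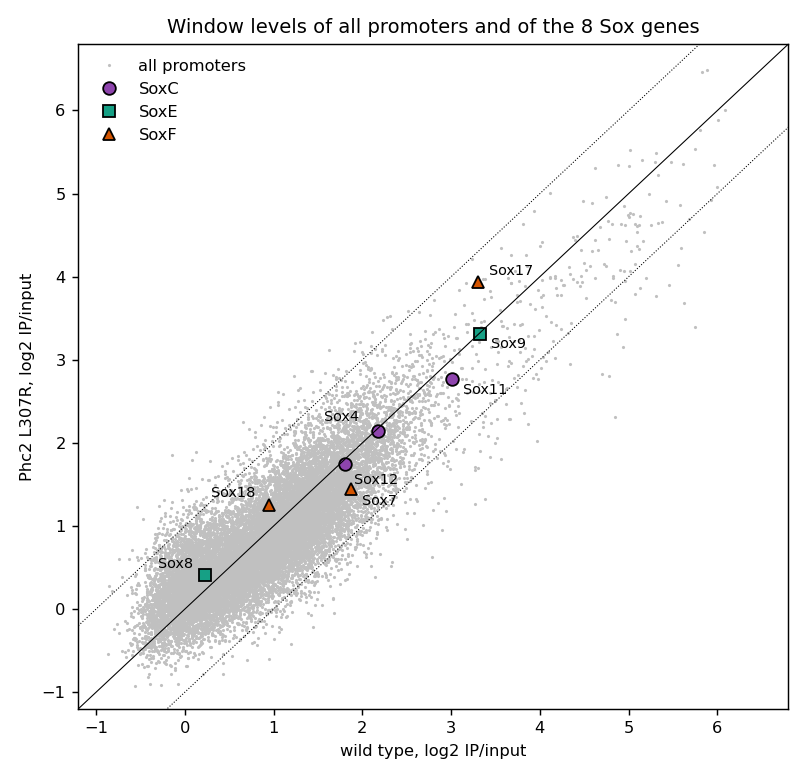
Window level of each of the 17649 promoters (grey) in Phc2 L307R on the y axis and wild type on the x axis, both as log2 immunoprecipitate over input, with SoxC, SoxE and SoxF genes as coloured symbols. The solid line marks equal levels and the dotted lines a difference of 1; all 8 Sox genes lie between the dotted lines, with Sox17 above the solid line by 0.63 and Sox7 below it by 0.43.

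Neighbours in the order of the 8 levels were set against their SD over probes. In Phc2 L307R, the gaps between Sox17 and Sox9, Sox9 and Sox11, Sox11 and Sox4, and Sox18 and Sox8 were larger than either neighbour's SD over probes, at 0.62, 0.54, 0.63 and 0.85. Sox4, Sox12, Sox7 and Sox18 followed each other at gaps of 0.19 to 0.39, each within the spread. In wild type, the gaps between Sox11 and Sox4, Sox4 and Sox7, and Sox12 and Sox18 were larger than either SD, at 0.83, 0.30 and 0.86. Sox9, Sox17 and Sox11, then Sox7 and Sox12, and Sox18 and Sox8 followed each other within the spread. Levels of different genes come from different probes, and the response of a probe was not tested. Some neighbours, such as Sox17 and Sox9 or Sox18 and Sox8, also lay on different array designs, each centred on its own median. The SD over probes holds no error between arrays or cultures. The order also moved with the processing. After normexp, wild type read 2.62 at Sox11, 2.43 at Sox7, 2.08 at Sox17, 2.01 at Sox4 and 1.98 at Sox9. By the mean over all probes, Sox4 at 1.02 in both genotypes stood above Sox11, at 0.81 in Phc2 L307R and 0.88 in wild type.

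The 3 genes known to be active in mesenchyme were all bound in both genotypes. Sox4, Sox9 and Sox11 had a median level of 2.76 in Phc2 L307R and 3.01 in wild type, and their differences ran between -0.24 and -0.01. The other 5 genes had a median of 1.45 in Phc2 L307R and 1.80 in wild type, with differences between -0.43 and 0.63. The levels of both sets overlapped, since Sox17 was above all 3 mesenchymal genes in Phc2 L307R. RNA was not measured on these arrays, so whether the genes were expressed in these cells was not tested.

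Ring1B covered unequal lengths of the 8 loci. At Sox17, 30 of 36 probes were at 1 or above in Phc2 L307R and 29 of 36 in wild type. The longest unbroken run was 29 probes over 5796 bp in Phc2 L307R and 26 probes over 5085 bp in wild type. Covered probes thus filled most of the 7733 bp on the array, and 170 of 17719 gene names, Sox17 included, had at least as large a share of such probes in Phc2 L307R, and 237 in wild type. The median share over all names was 6.56% in Phc2 L307R and 7.41% in wild type.

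Sox9 followed, with 23 of 41 probes at 1 or above in Phc2 L307R and 21 of 41 in wild type. Its longest run was 16 probes over 2595 bp in Phc2 L307R and 14 probes over 2233 bp in wild type, and ratios alternated between high and low on its far side. Sox4 had 25 of 48 probes in Phc2 L307R and 22 of 48 in wild type, in separate stretches, the longest being 9 probes over 1482 bp in both. At Sox11, 18 of 44 probes in Phc2 L307R and 15 of 44 in wild type passed 1. The high probes of Sox11 began at the first probe that carried its name. Probes beyond it under other names were not examined, so the edge of its domain on that side is not given.

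The remaining genes had short stretches. Sox12 had 5 of 27 probes at 1 or above in Phc2 L307R and 9 of 27 in wild type, the largest difference in covered probes among the 8. Sox7 had 10 of 40 in Phc2 L307R and 11 of 40 in wild type, Sox18 had 3 of 11 in both, and Sox8 had 0 of 14 in both. Neighbouring probes can report the same sheared fragments, so probe counts are not independent measurements.

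**Figure D3:**
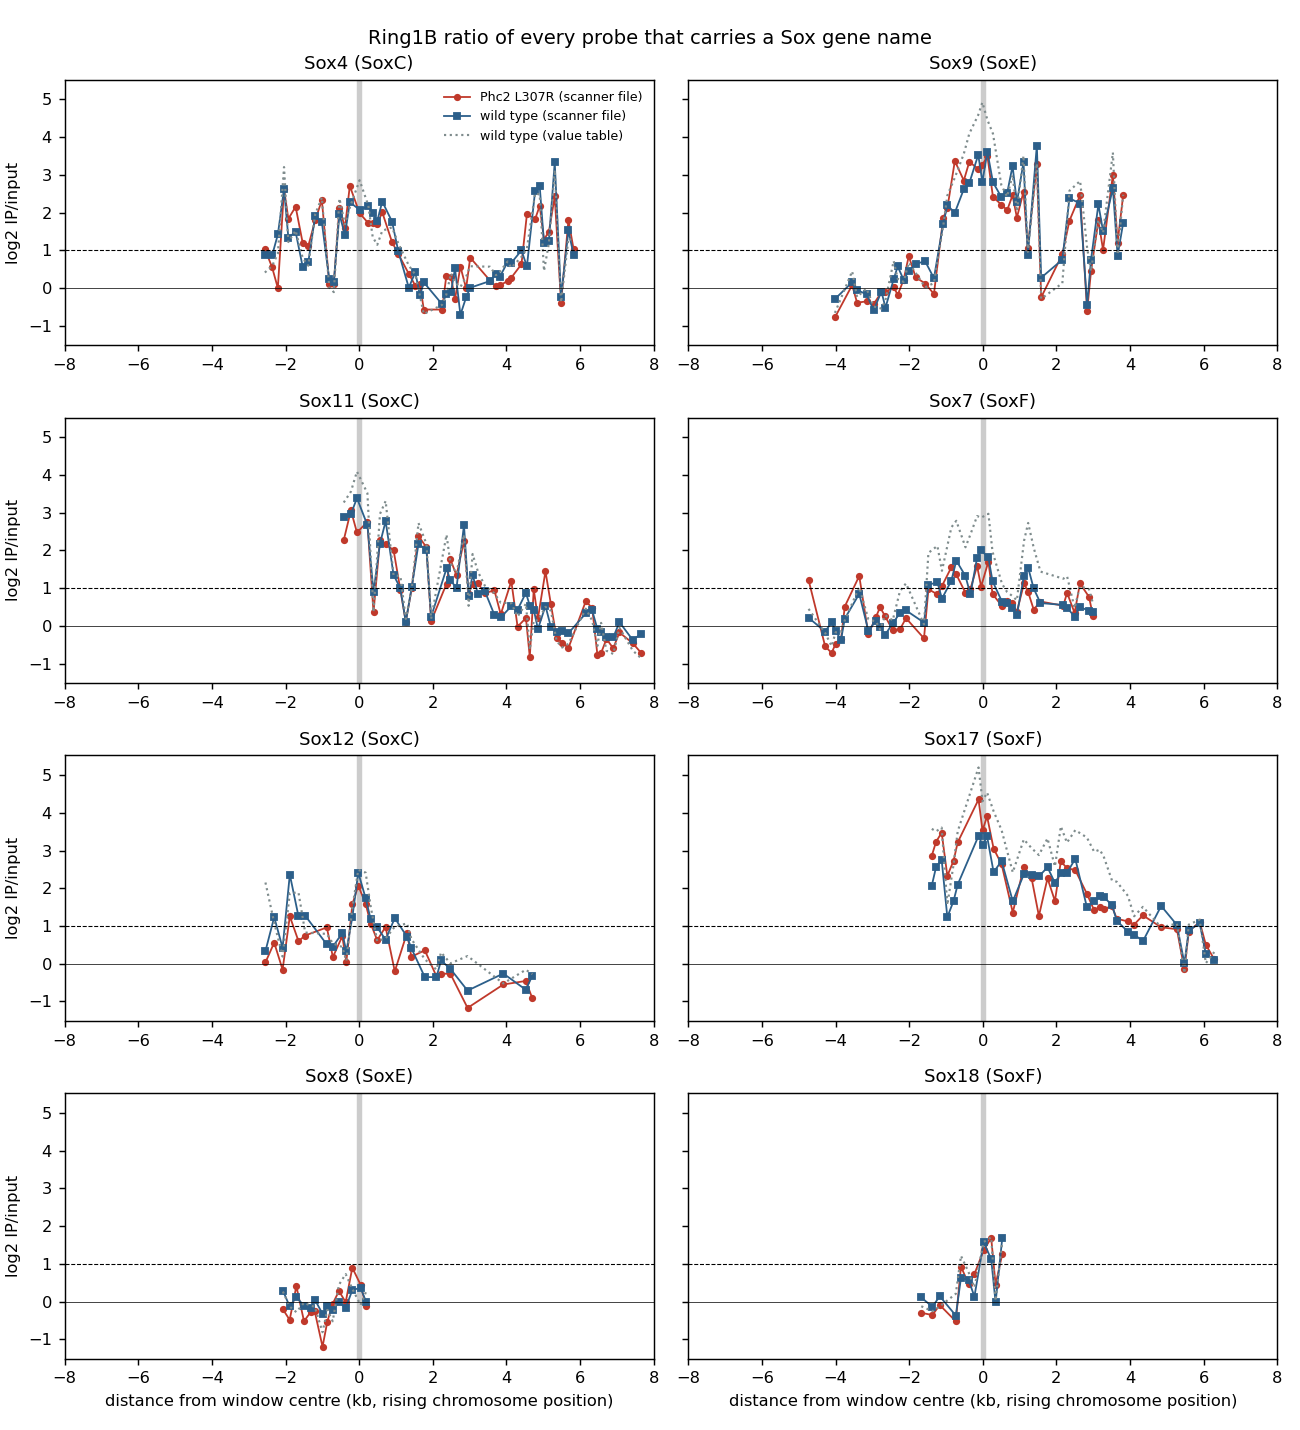
Log2 immunoprecipitate over input (y axis) of every probe that carries each Sox gene name against distance from the centre of the 3-probe window in kb (x axis), for Phc2 L307R (red circles), wild type from the scanner files (blue squares) and wild type from the value tables (grey dots). The dashed line is the cut-off of 1. Sox17 is above the cut-off over most of its probes, Sox9 and Sox11 peak near the window, and Sox8 stays below the cut-off.

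In the scanner files the higher Sox17 probes of Phc2 L307R lay on one side of the locus, as seen in the probe profiles, and in the value tables this was not so. Over the 9 probes up to the end of the window by chromosome position, all 9 were higher in Phc2 L307R, with means of 3.29 in Phc2 L307R and 2.48 in wild type and a mean difference of 0.82 ± 0.26. Over the 27 probes beyond the window, 12 were higher in Phc2 L307R, and the mean difference was -0.04 ± 0.37. From the value tables, 2 of the first 9 probes and 3 of the other 27 were higher in Phc2 L307R, with mean differences of -0.31 and -0.72. This division was chosen after the values were seen, and the window itself is part of the first stretch. Over all 36 probes the mean was 1.98 in Phc2 L307R and 1.80 in wild type, a difference of 0.17 ± 0.51. The processed immunoprecipitate signal of the Sox17 window averaged 5964 in Phc2 L307R and 3748 in wild type, and the input signal 435 in Phc2 L307R and 409 in wild type, so the genotypes lay further apart in the immunoprecipitate than in the input.

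Over all its probes, Sox12 was lower in Phc2 L307R at 20 of 27. The mean was 0.37 in Phc2 L307R and 0.62 in wild type, a difference of -0.25 ± 0.46 between probes. For Sox9 the mean over 41 probes was 1.33 in Phc2 L307R and 1.44 in wild type, and for Sox4 over 48 probes it was 1.02 in both. The whole-locus differences of the 8 genes thus lay between -0.25 and 0.17, each smaller than the SD over its probes.

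The wild-type values exist in 2 deposited versions, and several Sox values turned on which was used. The Phc2 L307R value tables equal the scanner ratios at 99.9% of probes, but the wild-type tables correlate with the wild-type scanner ratios only at 0.854 and 0.891 on designs 1 and 2 (Pearson, across probes), and the array or processing behind them is unknown. In the value tables, wild-type Sox17 was at 4.68 ± 0.47, wild-type Sox9 at 4.66 ± 0.24 and wild-type Sox7 at 2.92 ± 0.05. Against these, Sox17 differed by -0.75 ± 0.10, Sox9 by -1.34 ± 0.37 and Sox7 by -1.47 ± 0.31. Sox9 and Sox7 were then called lower in Phc2 L307R, and Sox17 stood lower instead of higher. At Sox8 the difference was -0.12, but in another window than in the scanner files (0.39 in Phc2 L307R and 0.50 in wild type). In the scanner window of Sox8 the value tables read 0.41 in Phc2 L307R and 0.17 in wild type, so the sign there stayed the same. Sox18 passed the bound cut-off in wild type, so that 7 of 8 genes were bound in each genotype.

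Thus 2 of the 7 bound Sox promoters were called lower and 0 higher from the value tables. There 8.25% of all bound promoters were called lower and 0.585% higher. Sox11 was at 3.72 ± 0.32 in the wild-type table and differed by -0.96 ± 0.58, just under the 2-fold rule. Sox4 differed by -0.25, Sox12 by -0.38 and Sox18 by 0.04. The wild-type table exceeded the wild-type scanner level in the same window by 1.38 at Sox17, 1.33 at Sox9, 1.04 at Sox7 and 0.72 at Sox11. The median excess was -0.02 over all promoters and 1.14 over the 279 promoters at 3 or above in wild type. Both comparisons used the same Phc2 L307R arrays, so neither is an independent repeat of the other.

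**Figure D4:**
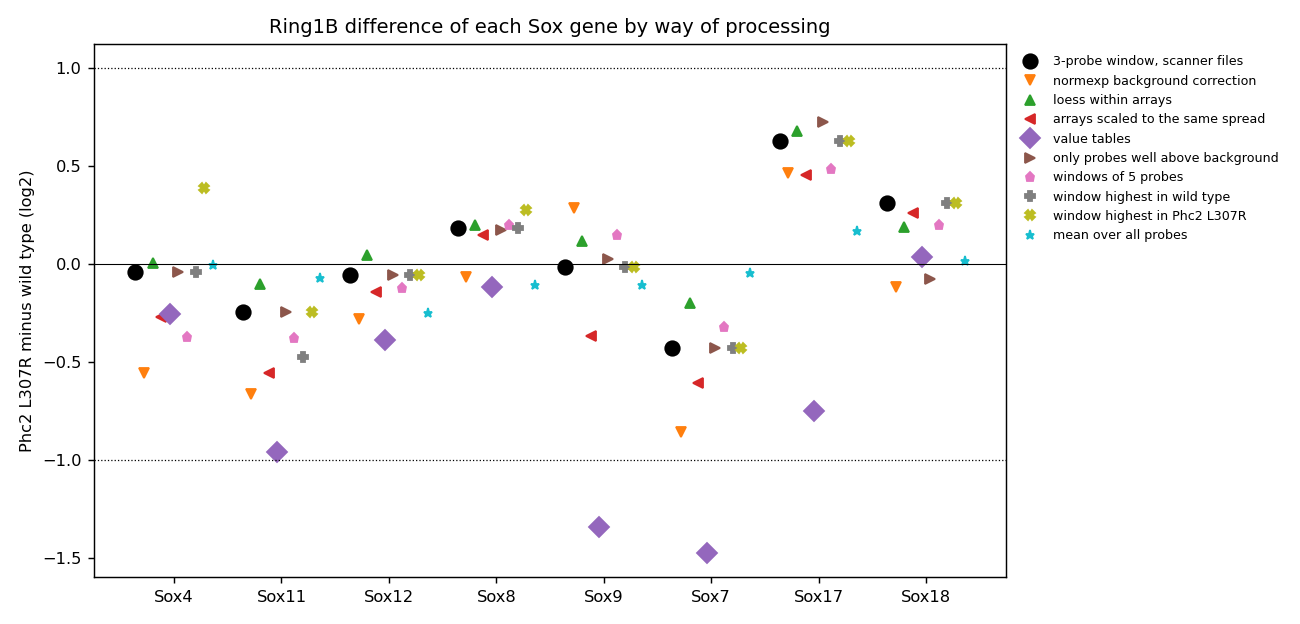
Difference in Ring1B level, Phc2 L307R minus wild type (log2, y axis), of each Sox gene under each way of processing (symbols), with dotted lines at -1 and 1. The value tables (large diamonds) place Sox9 at -1.34 and Sox7 at -1.47, past the lower line, and Sox17 at -0.75, whereas every other symbol of Sox17 is above 0.

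The same measures were taken for the Sox genes outside these subgroups. Of 9 such genes with a window, 7 were bound, 0 were lower and 0 higher in Phc2 L307R, with a median difference of 0.08. Over all promoters, 51.0% were bound in either genotype, and of those 3.01% were lower and 1.64% higher. Sox2, the pluripotency and neural progenitor factor, was the highest of them, at 6.49 ± 0.04 in Phc2 L307R and 5.89 ± 0.05 in wild type. The difference of 0.60 ± 0.03 was close in size to that of Sox17. By the 1.5-fold rule Sox2 was called higher, 1 of the 7 bound genes, where that rule called 6.38% of bound promoters higher. Sox1, of neural progenitors, differed by 0.33 ± 1.5. The cartilage partners of Sox9 had values on the other side: Sox5 was at 2.17 in Phc2 L307R and 2.67 in wild type (-0.50 ± 0.36), and Sox6 at 1.49 in Phc2 L307R and 1.95 in wild type (-0.45 ± 0.16). In the value tables Sox2 differed by -0.71, so its sign was turned as that of Sox17 was. There 3 of the 7 bound genes were called lower, against 8.25% of bound promoters. They were Sox5 at -1.06 and, named after their values were seen, Sox3 at -1.38 and Sox21 at -1.35.

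Genes known to act downstream of the Sox factors were described by counts and medians, beside a median difference of -0.05 over all promoters and -0.14 over the bound ones. The counts below stand beside the same shares over all promoters, 51.0% bound in either genotype and, of the bound ones, 3.01% lower and 1.64% higher. Of 14 chondrocyte genes around Sox9, 8 were bound and 0 were lower or higher, with a median difference of -0.24. Agc1 (aggrecan) differed by -0.97 ± 0.99 and Matn3 (matrilin-3) by -0.62 ± 0.12, whereas Hapln1 (cartilage link protein) differed by -0.04 and Col2a1 (type II collagen) by -0.08. Of 18 neural crest, melanocyte and Schwann cell genes, 13 were bound and 0 were lower or higher, with a median of -0.01. Among the bound members, Snai2 (a neural crest repressor) differed by -0.53, and the highest were Tyr (tyrosinase) at 0.66 and Pmp22 (a myelin protein) at 0.29.

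Of 14 endothelial and lymphatic genes around SoxF, 5 were bound and 0 were lower or higher, with a median of -0.07. Fli1 (an endothelial ETS factor) differed by -0.45 and Flt1 (a VEGF receptor) by -0.40, against 0.01 for Vcam1 (an adhesion molecule) and 0.24 for Prox1 (the lymphatic regulator that Sox18 activates). Of 15 endoderm genes around Sox17 and Sox7, 11 were bound, 1 was lower and 0 were higher, with a median of -0.34. The lower one was Cer1 (a Nodal and BMP antagonist), at -0.10 in Phc2 L307R and 1.14 in wild type, but its difference was 0.34 in the value tables. Gata6, an endoderm regulator, was at 4.69 in Phc2 L307R and 5.68 in wild type, a difference of -0.99 that just missed the rule, and it was called lower in the value tables at -2.17. On the upper side were Lamb1-1 (a laminin chain) at 0.99 ± 0.60 and Lama1 (another) at 0.11.

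Of 10 neuronal genes around SoxC, 8 were bound and 0 were lower or higher, with a median of 0.17. Mtap2 (a dendritic microtubule protein) differed by -0.45 and Tead2 (a direct SoxC target in mouse) by -0.31, and Isl1 (a motor neuron regulator) by 0.32 and Elavl4 (a neuronal RNA-binding protein) by 0.49 ± 1.14. Of 10 partners and Wnt pathway genes, 9 were bound, 3 were lower and 0 were higher, with a median of -0.34. Nr5a1, with which Sox9 acts in the testis, was at 1.34 in Phc2 L307R and 2.92 in wild type (-1.57 ± 0.69). Wt1, of gonad and kidney, was at 3.86 in Phc2 L307R and 5.13 in wild type (-1.27 ± 0.29). Tcf7l2, a nuclear Wnt effector named after its value was seen, was at 1.42 in Phc2 L307R and 2.47 in wild type (-1.05 ± 0.29). In the value tables Nr5a1 and Wt1 were lower by the same rule and Tcf7l2 at -0.88 was not. Of the Brn class of POU factors, which are known to pair with Sox factors, Pou3f3 differed by 0.36, but by -1.28 in the value tables where it was called lower, and Pou3f4 by 0.68.

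The list counts depended on the version of the wild-type values. Of the genes bound in the value tables, 8 of 11 endoderm genes and 6 of 10 partners and Wnt pathway genes were called lower there. So were 3 of 7 bound chondrocyte, 3 of 13 neural crest, 3 of 6 endothelial and 2 of 8 neuronal genes. In each of these lists 0 were called higher. The same rule called 8.25% of bound promoters lower in those tables and 0.585% higher. Named after their values were seen, the chondrocyte ones were Col2a1, Agc1 and Comp, the neural crest ones included Foxd3 and Tcfap2a, the endothelial ones were Flt1, Prox1 and Fli1, and the neuronal ones were Prox1 and Neurod1. With arrays scaled to the same spread, 4 of 11 bound endoderm genes were called lower, Foxa1, Gata4, Gata6 and Cer1. The share of 8.25% is over bound promoters of every level. At the 279 promoters at 3 or above in wild type, the wild-type table exceeded the scanner level by a median of 1.14. The median was -0.05 over all promoters bound in wild type. The lists hold promoters on both sides of that level, and the part of level in these counts was not tested.

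For each Sox gene, the most similar promoter outside the family was taken as the one on the same array design with the smallest distance in the pair of levels, which rests on 2 arrays. For Sox17 it was Gnas, at 3.88 in Phc2 L307R and 3.34 in wild type, and for Sox9 it was Olig2, at 3.31 in Phc2 L307R and 3.32 in wild type. Sox11 was nearest to Zfp474, Sox4 to Fbxo30 and Sox12 to Tgfbr3. Sox7 was nearest to Col14a1, Sox18 to Smap1 and Sox8 to Olfr386.

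Some measures of the arrays moved with genotype. On designs 1 and 2, 75.0% and 76.3% of probes had an input signal well above background in Phc2 L307R, against 85.7% and 86.7% in wild type. The probe noise, estimated from differences between neighbouring probes, had an SD of 0.50 and 0.49 in Phc2 L307R, against 0.46 and 0.40 in wild type. Their part in the Sox values was not tested. The cell type could not be checked, since Ring1B occupancy is no measure of RNA. Of 14 fibroblast marker promoters, 12 were bound in each genotype, against 39.3% of all promoters in Phc2 L307R and 45.4% in wild type, with median levels of 2.26 in Phc2 L307R and 2.01 in wild type. In each genotype 4 of 5 chondrocyte, 1 of 7 endothelial, 1 of 5 melanocyte and Schwann cell, and 1 of 3 neuron marker promoters were bound. A high bound share was thus not particular to the fibroblast markers. Medians of the endothelial, chondrocyte, melanocyte and Schwann cell, and neuron markers lay between 0.45 and 1.42 in Phc2 L307R and between 0.07 and 1.77 in wild type.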

How the data were processed

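Ring1B occupancy was measured on 4 2-colour arrays, and genotype was taken from the labels. Per the file headers, Agilent Feature Extraction 10.7.3.1 gave each spot's intensity after background subtraction, detrending and dye normalization. Per the file headers, the ratio of Cy5 to Cy3 in the deposited scanner files is on the log10 scale. A comparison with those ratios showed that the 2 deposited value tables are log10 values as well. Their column medians were -0.0342 and -0.0393 for Phc2 L307R and -0.0560 and -0.0615 for wild type. The scanner files deposited per spot also hold other measures, namely outlier, saturation and background flags coded as a score of 0 or 1.

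Each scanner ratio was turned to log2, and the median of its array was subtracted. Control spots and probes with an outlier flag on either array of a design were left out, which removed 1 of 42 Sox9 probes. Windows of 3 probes spanned at most 2000 bp. Simulated data with known differences were used to check the steps. With 1 array per genotype and promoter, no test was run, and precision is limited by the number of arrays. Named genes were the members, the 2 lowest and 2 highest bound genes of each list and the nearest promoter of each member; some genes of the lists are not reported here singly. The members, lists and rules were chosen with earlier results of these data known. Tcf3 and Tcf4 were left out as ambiguous symbols. Settings tried beside the main one numbered 12. Python 3.11.15, numpy 2.4.6, pandas 2.3.3, R 4.3.3, limma 3.58.1 and matplotlib 3.10.9 were used.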

Additional observations from a re-analysis of the deposited data

How the results depend on the processing

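The 8 Sox differences were taken under 12 other settings. The cut-offs of 1.5 and 3 and the 1.5-fold rule change calls only, so they cannot move a difference. Sox17 lay above 0 in all settings except the value tables, at 0.17 to 0.73, and Sox7 below 0 in all, at -1.47 to -0.05. Choosing the window by either genotype alone returned the main values, 0.63 at Sox17 and -0.43 at Sox7. With only probes well above background, Sox7 again stayed at -0.43. Such repeats of the main value add no evidence on the sign. With normexp the SoxC median was -0.56. The value tables gave medians of -0.73 for SoxE, -0.75 for SoxF, -0.57 for the 8 genes, -0.71 for other Sox genes, -1.03 for endoderm, -0.40 for neuronal and -1.07 for partner genes, and called 2 Sox promoters lower. The mean over all probes left 3 Sox promoters bound in each genotype, and a cut-off of 3 left 2 in Phc2 L307R and 3 in wild type. A 1.5-fold rule called 1 of the 8 Sox promoters higher. Windows highest in Phc2 L307R gave medians of 0.46 for endothelial and -0.024 for partner genes. Over all promoters, normexp left 2254 bound in Phc2 L307R and 4041 in wild type, with 11 higher. Arrays scaled to the same spread gave 423 lower, and from the value tables the count was 733 lower and 52 higher. Probes well above background left 3927 bound in Phc2 L307R, 169 lower and 29 higher. Windows of 5 probes gave 107 lower and 47 higher, windows highest in wild type 467 and 32, and windows highest in Phc2 L307R 90 and 295. The mean over all probes gave 705 bound in Phc2 L307R and 835 in wild type, 6 lower and 1 higher. A cut-off of 1.5 left 3279 bound in Phc2 L307R and 3886 in wild type, with 92 higher. A cut-off of 3 left 255 bound in Phc2 L307R and 279 in wild type, 59 lower and 13 higher. The 1.5-fold rule gave 1212 lower and 574 higher. Except where the number of probes or promoters that could qualify sets the count, the cause was not tested. Leaving out an array was not run, since it leaves no array of that genotype. No paired analysis was possible because each genotype had 1 array per design and the numbers in the titles name designs. Input signal near background at Sox17 and Sox18 limits their ratios.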
